A study of Mus musculus with 199 samples.

Results

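The libraries described here were the multiplex genome architecture mapping (GAM) libraries of highest genome coverage among those that failed quality control, set beside libraries of intermediate coverage from the same table. Coverage was the percent of the 65983 windows of 40 kb on chromosomes 1 to 19 and X that were called positive in a library. The members were chosen by this coverage. Of the 186 libraries titled 4NP, for 4 nuclear profiles per cap, out of 199 libraries in all, 33 had a coverage above 10% and are called high-coverage libraries. Another 80 had a coverage of 1% to 10% and are called middle-coverage libraries. The other 73 were below 1%. Since the calls themselves chose both classes, differences between the classes are given as a description, with the spread between libraries and without a test.

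In GAM, thin cryosections are cut through fixed cells, slices of nuclei are isolated by laser microdissection, and the DNA of each collection cap is amplified and sequenced. A slice passes through some chromosome territories and misses others, and within a territory it takes up stretches of the chromatin fibre, so positive windows tend to lie in runs. The joint presence of a pair of loci in a slice, called co-segregation, is read as spatial nearness and becomes rarer along the chromosome.

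All libraries came from 46C cells, a male line of mouse embryonic stem cells of strain 129/Ola. Sections were 220 nm thick, DNA was amplified with the WGA4 kit, and a library was made from each cap. How many nuclei a cap sampled is not known from the calls. The 33 high-coverage libraries came from 7 of the 11 experiments. The proteinase K titration gave 12 of them, 3 with 1 µl of the enzyme titled csc and 4, 4 and 1 with 3, 4 and 8 µl of the enzyme titled mdc. The propidium iodide experiment gave 11, of which 7 were stained and 4 were stained and then frozen. The eosin test gave 3, all stained with eosin in ethanol. The full collection, stained with cresyl violet per its protocol, gave 2, the unstained caps of the cresyl violet test, whose stained caps are titled crystal violet, gave 2, and caps frozen early or late in the early freezing test gave 1 each. An unfrozen cap of the test of freezing after incubation gave the last.

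The 80 middle-coverage libraries came from all 11 experiments. Propidium iodide gave 22, of which 11 were stained and 11 were stained and then frozen. The proteinase K titration gave 14, of which 4 had 1 µl of csc enzyme and 1, 2, 3 and 4 had 2, 3, 4 and 8 µl of mdc enzyme. The SYBR Gold test gave 14, of which 13 were titled stained and 1 unstained, and the eosin test gave 13, of which 8 were stained in water and 5 in ethanol. The full collection gave 4. The test of PCR cycle number also gave 4, 1 each at 20 and 23 cycles and 2 at 25. Unstained caps of the cresyl violet test gave 3, caps frozen after incubation gave 2, and caps amplified with the small kit gave 2. A cap frozen late and a cap of reagent protocol c gave 1 each. For SYBR Gold, the protocols contradicted the titles on which caps were stained, and the titles were followed. In all of these tests other conditions sat in other caps, so the condition, the cap and the nuclei in it cannot be told apart for a single library.

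Mean coverage was 13.8% ± 3.26 (SD, n = 33) in high-coverage libraries, with a lowest value of 10.7%, a median of 13.1% and a highest value of 26.8%. It was 4.80% ± 2.60 (n = 80) in middle-coverage libraries, from 1.09% through a median of 4.23% to 9.99%. Pooled over libraries, 13.8% of all window calls were positive in the first class and 4.8% in the second, and these shares are the background for every window named here. High-coverage libraries held 7056 to 17665 called windows and middle-coverage libraries held 718 to 6594. The calls do not carry read depth, so the depth behind a call is unknown. Just below the limit lay proteinase K libraries at 9.99% (1 µl csc, replicate 5) and 9.87% (4 µl mdc, replicate 6), and just above it a propidium iodide library at 10.7% (stained, replicate 14) and a proteinase K library at 10.8% (1 µl csc, replicate 3).

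A pair of water controls, which should hold no nuclear profile, lay in the range of the high-coverage libraries. Water control replicate 4 of the full collection had a coverage of 21.4%, and the water control titled unstained in the SYBR Gold experiment had 21%. Neither had a near-absent chromosome, as defined below, and their mean run lengths were 2.82 and 2.40 windows. High coverage with long runs was thus also found in libraries labelled as lacking profiles. The origin of the calls in these controls was not tested.

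Called windows lay in longer runs in high-coverage libraries. A run is an unbroken series of called windows on a chromosome. Mean run length was 2.18 ± 0.46 windows (SD, n = 33) in high-coverage libraries, between 1.5 and 3.45 with a median of 2.20. In middle-coverage libraries it was 1.51 ± 0.54 windows (n = 80), between 1.06 and 4.08 with a median of 1.31. The ranges overlapped widely, and the longest mean run of all belonged to a middle-coverage library.

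Runs lengthen with coverage even when calls are scattered, so each mean run length was divided by the length that calls placed at random would give at the same coverage. This ratio was 1.87 ± 0.36 in high-coverage libraries, from 1.33 through a median of 1.89 to 2.66. It was 1.43 ± 0.48 in middle-coverage libraries, from 1.04 through a median of 1.26 to 3.81. All libraries of both classes therefore lay above a ratio of 1, and the upper quartile of the middle-coverage libraries was 1.43, close to the lowest high-coverage values.

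**Figure D1:**
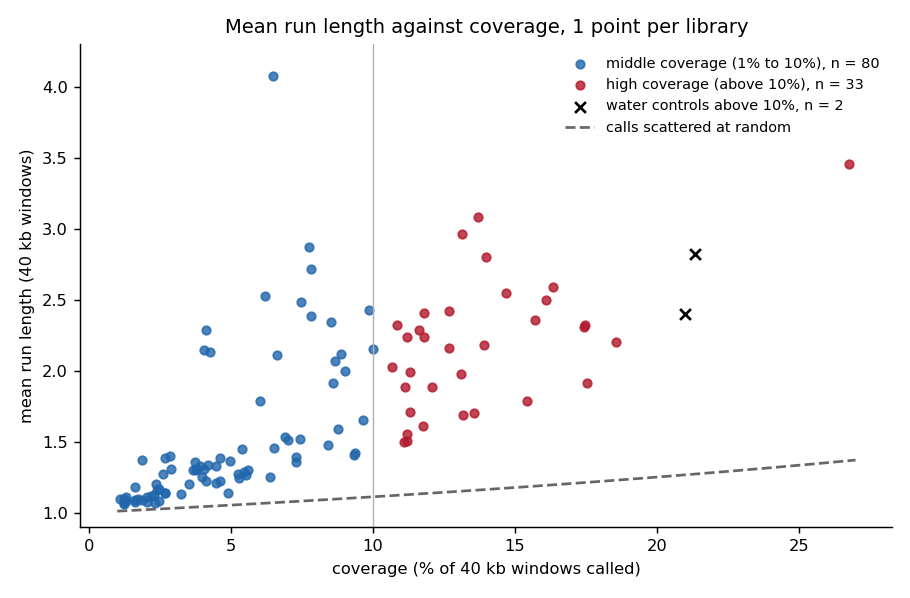
Mean run length in 40 kb windows against genome coverage in percent, with 1 point per library for 33 high-coverage and 80 middle-coverage libraries, crosses for the 2 water controls above 10%, and a dashed line for calls scattered at random. All points lie above the dashed line, and one middle-coverage library at 6.47% coverage reaches a mean run of 4.08 windows.

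Inside the classes the ratio was higher at higher coverage. It averaged 1.10 ± 0.08 (n = 12) in libraries with 1% to 2% coverage, 1.27 ± 0.27 (n = 35) at 2% to 5% and 1.72 ± 0.58 (n = 33) at 5% to 10%. Across the limit it was 1.75 ± 0.29 (n = 16) at 10% to 13%, and 1.99 ± 0.39 (n = 17) above 13%. The step from 5% to 10% coverage to 10% to 13% was smaller than the spread within either bin, so the ratio did not set the classes apart at the limit itself.

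Isolated windows took a larger share of the calls in middle-coverage than in high-coverage libraries. On average 56.7% ± 22 of their called windows had no called neighbour, against 26.8% ± 9.49 in high-coverage libraries. The share was lower at higher coverage within the middle class, at 39.3% ± 16.9 in its 33 libraries of 5% to 10% coverage. Runs of at least 5 windows, which span 200 kb or more, held 29.9% ± 12.9 of the called windows of a high-coverage library and 10.1% ± 15.2 of those of a middle-coverage library. Runs of at least 25 windows, or 1 Mb, numbered 94 in 21 of the 33 high-coverage libraries and 41 in 7 of the 80 middle-coverage libraries. A single library of each class held many of them: 44 lay in the propidium iodide stained replicate 7 and 21 in the unstained replicate 1 of the cresyl violet test, and without these libraries 50 and 20 such runs remained. The longest run of a library averaged 1199 kb ± 476 in the first class and 481 kb ± 452 in the second.

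The longest run of all lay in a middle-coverage library. It spanned 79 windows, or 3160 kb, at chr1:95880001-99040000 (mm9) in the propidium iodide stained replicate 16, a library with a coverage of 7.84%, and held 10 protein-coding genes. The same library held another run of 60 windows. Chromosome 1 was covered to 34.2% in this library, and 8 other chromosomes were near-absent. A further run of this library, among the leading 5 of the class, covered 38 windows at chr14:91720001-93240000 and held no protein-coding gene.

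Another of the leading middle-coverage runs, of 49 windows at chr14:86080001-88040000, lay in the unstained replicate 1 of the cresyl violet test over Diap3, a formin that assembles actin filaments, and Tdrd3, a Tudor domain protein. The remaining one lay at chr8:121280001-122800000 in replicate 2 of the caps amplified for 25 PCR cycles, covered 38 windows and held 23 protein-coding genes. These runs were not shared stretches of the class: their windows were called in 4.92% to 7.63% of middle-coverage libraries on average, next to the pooled share of 4.8%.

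In the high-coverage class, 4 of the 5 longest runs came from a single library, the propidium iodide stained replicate 7, whose coverage of 26.8% was the highest of all. Its longest run covered 60 windows, or 2400 kb. Runs of 51 and 49 windows lay on chromosome 13, at chr13:35440001-37480000 over Cdyl, Rpp40, Ppp1r3g, Lyrm4, Fars2, Nrn1, F13a1 and Ly86, and at chr13:114480001-116440000 over Arl15, Ndufs4, Fst, 4930544M13Rik, Mocs2, Itga2, Itga1 and Pelo. Fst encodes follistatin, which binds activins, and Itga1 and Itga2 encode integrin subunits that bind collagen. A further run covered 55 windows at chr14:45160001-47360000 and held 16 protein-coding genes.

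The only leading high-coverage run from another library lay at chr5:22840001-25160000 in the unstained replicate 3 of the cresyl violet test. It covered 58 windows and held 38 protein-coding genes. Without the propidium iodide stained replicate 7, mean run length of the high-coverage class was 2.14 windows. The windows of the 5 high-coverage runs were called in 14.8% to 20.0% of high-coverage libraries, counting the library of the run itself, next to the pooled 13.8%.

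On average, fewer chromosomes were missing from high-coverage libraries. A chromosome was called near-absent where its coverage was below 10% of that of its library. There were 0.88 ± 0.96 near-absent chromosomes per high-coverage library (SD, n = 33) and 2.1 ± 2.4 per middle-coverage library (n = 80). Summed over libraries these were 29 of 660 chromosomes, or 4.39%, and 168 of 1600, or 10.5%. The numbers per library overlapped, the median was 1 in both classes, and 24 middle-coverage libraries had no near-absent chromosome. Within the middle class the mean ran the other way, at 1.58 ± 2.15 (n = 12) for 1% to 2% coverage, 1.94 ± 2.21 (n = 35) for 2% to 5% and 2.45 ± 2.63 (n = 33) for 5% to 10%. It was 0.938 ± 0.929 (n = 16) at 10% to 13% and 0.824 ± 1.01 (n = 17) above 13%.

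Among high-coverage libraries, 14 had no near-absent chromosome, 12 had 1, 4 had 2 and 3 had 3. Among middle-coverage libraries 24 had none, 23 had 1, 5 had 2, 9 had 3, and 19 had 4 or more. A chromosome with no called window at all was found once in the high-coverage class, in replicate 14 of the full collection, which had no call on chromosome 5 and at most 0.130% on chromosomes 18 and 19 at a library coverage of 14%. The middle-coverage class held 14 such chromosomes, in 9 libraries. Thus a chromosome could be missing from a library that covered more of the genome than most others.

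The most incomplete libraries had 9 near-absent chromosomes and both belonged to the middle-coverage class. In the unstained replicate 1 of the cresyl violet test, chromosomes 2, 3, 5, 6, 7, 10, 12, 15 and 16 were each covered to at most 0.603%, whereas chromosome 14 was covered to 26.4%. This library also had the longest mean run of both classes, 4.08 windows. In the propidium iodide stained replicate 17, chromosomes 1, 4, 9, 11 and 15 to 19 were each covered to at most 0.386%, whereas chromosome 2 reached 15.5%. The near-absent chromosomes of these libraries shared only chromosomes 15 and 16.

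**Figure D2:**
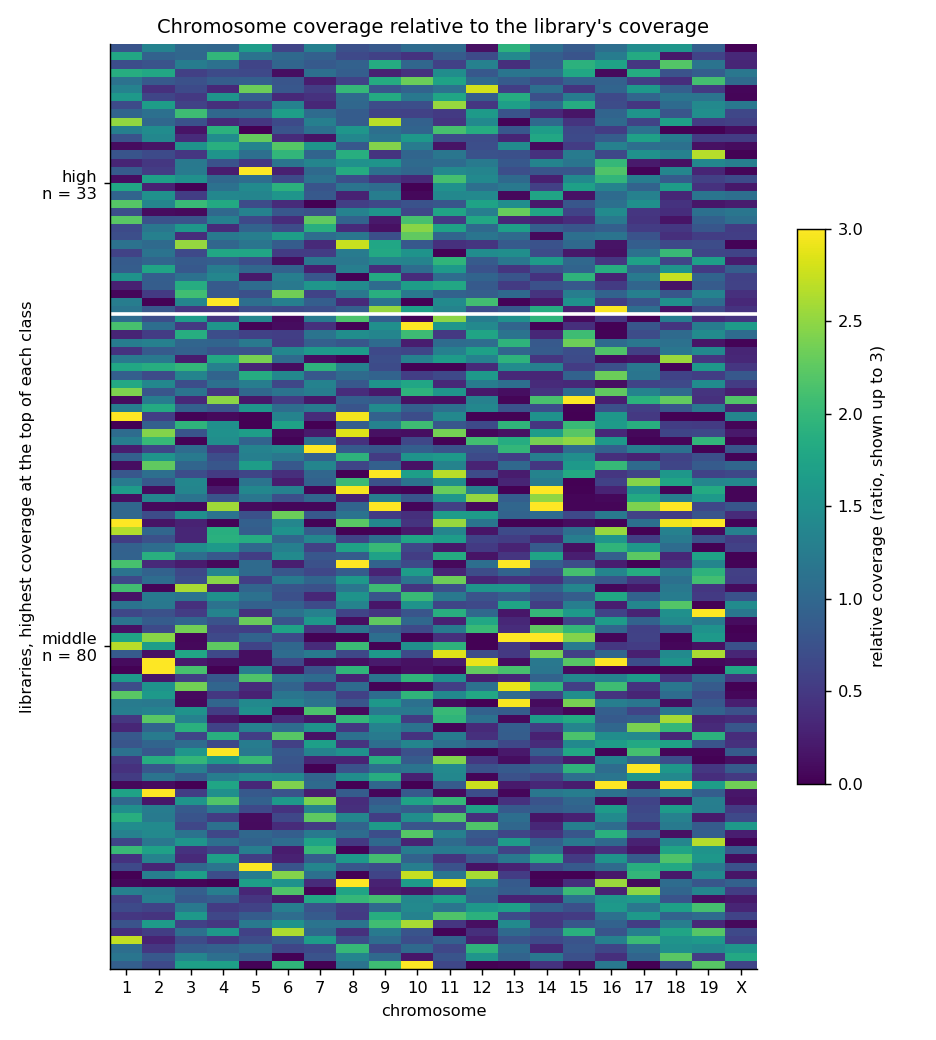
Coverage of each chromosome divided by the coverage of its library, shown as colour from 0 to 3, for 33 high-coverage libraries above the white line and 80 middle-coverage libraries below it, each class ordered by coverage. Dark cells, the chromosomes with few or no calls, are scattered over chromosomes and more frequent below the line, and the column of chromosome X is dark in both classes.

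Other chromosomes held more calls than the rest of their library. On average 1.1 ± 0.8 chromosomes of a high-coverage library and 1.9 ± 1.3 of a middle-coverage library had a coverage above double that of the library. The highest relative coverage was 3.11 on chromosome 4 in the high-coverage class and 5.77 on chromosome 16 in the middle-coverage class. The coefficient of variation of coverage over the 20 chromosomes was 59.4% ± 9.80 in high-coverage libraries, between 44.6% and 77.2%. It was 73.1% ± 23.4 in middle-coverage libraries, between 41.4% and 153%. The middle-coverage class therefore held both the most even and the most uneven libraries.

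Chromosome X was near-absent most often in both classes, in 7 of 33 high-coverage libraries (21.2%) and in 18 of 80 middle-coverage libraries (22.5%). The limit was the same for X as for autosomes, although a male line holds a single X. Over autosomes alone, 22 of 627 (3.51%) and 150 of 1520 (9.87%) were near-absent. Chromosomes 4, 6, 9, 12 and 15 were near-absent in no high-coverage library, where 0 of 33 allows a share of up to 9.09%. In the middle-coverage class chromosome 2 was near-absent least often, in 4 of 80 libraries (5.00%), and chromosomes 12 and 15 were near-absent in 11 each (13.8%), the most of any autosome. An autosome in the high-coverage class was near-absent in at most 3 libraries, as found for chromosomes 10 and 13.

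**Figure D3:**
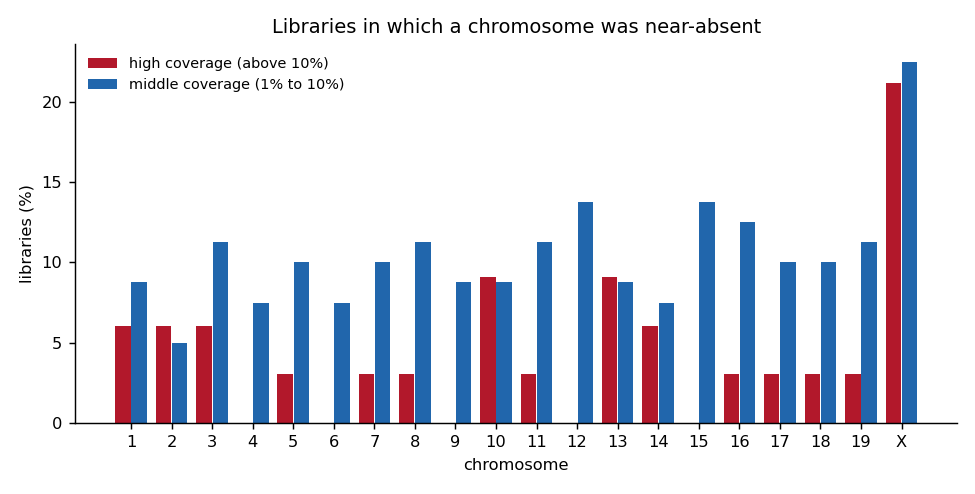
Percent of libraries in which each chromosome was near-absent, with a coverage below 10% of the library's, for 33 high-coverage and 80 middle-coverage libraries. Chromosome X stands highest in both classes at 21.2% and 22.5%, and the autosomes lie between 0% and 13.8%.

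The X to autosome ratio, the percent of X windows called divided by that of autosomal windows, was 0.514 ± 0.409 (SD, n = 33) in high-coverage libraries, from 0.0185 through a median of 0.512 to 1.30. In middle-coverage libraries it was 0.587 ± 0.575 (n = 80), from 0.0101 through a median of 0.467 to 2.58. With standard errors of 0.0712 and 0.0643, both means lay more than 6 SE below 1. In a male line, with a single X beside paired autosomes, 1 is not the ratio that copy number gives. The distance from 1 is thus no sign by itself that X was depleted in either class. Single libraries spread widely around these means: the ratio lay below 0.1 in 7 high-coverage and 19 middle-coverage libraries, and between 0.1 and 0.75 in 18 and 39. The order of the class means was not stable. The medians, given above, stood in the opposite order to the means, and with a limit of 8% in place of 10% between the classes the means were 0.567 and 0.566.

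Windows were called together well beyond the length of a run. For each library, the share of window pairs at a given distance in which both were called was divided by the square of the library's coverage. This pair ratio was 3.88 ± 0.79 (SD, n = 33) at 40 kb in high-coverage libraries and fell with distance to 2.76 ± 0.42 at 400 kb, 1.88 ± 0.20 at 2 Mb and 1.39 ± 0.16 at 20 Mb. In middle-coverage libraries it was 5.99 ± 2.54 (n = 80) at 40 kb, 3.84 ± 1.53 at 400 kb, 2.39 ± 0.82 at 2 Mb and 1.62 ± 0.54 at 20 Mb. The ratio exceeded 1 in 33 of 33 high-coverage libraries at every distance examined, and in 77 of 80 middle-coverage libraries at 20 Mb.

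The pair ratio cannot exceed the inverse of the coverage, so its upper bound is lower in high-coverage libraries. Given as the share of called windows whose partner was also called, the order of the classes was the opposite. At 40 kb the partner was called for 52.3% ± 9.81 of windows in high-coverage libraries and for 27.9% ± 17.7 in middle-coverage libraries. At 400 kb these shares were 37.5% ± 6.88 and 18.7% ± 12.7, and at 20 Mb they were 19% ± 3.83 and 7.92% ± 5.14. The direction of the difference between the classes thus depends on whether pairs are set against coverage.

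Part of the pair ratio came from whole chromosomes being rich or poor in calls. With each chromosome's own coverage as the reference, the ratio at 20 Mb was 1.04 ± 0.07 in high-coverage and 1.03 ± 0.13 in middle-coverage libraries, above 1 in 23 of 33 and 47 of 80. At 10 Mb it was 1.07 ± 0.05 and 1.11 ± 0.15. At 2 Mb it was 1.40 ± 0.08 and 1.52 ± 0.26, and at 400 kb it was 2.05 ± 0.23 and 2.42 ± 0.49, above 1 in all libraries of both classes at 400 kb. Most of the excess within a chromosome was therefore found at distances below 10 Mb, and at the distances given the class means lay within 1 SD of the middle-coverage class of each other.

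Co-segregation was also measured across libraries, as normalized linkage disequilibrium (D′) between windows averaged at each distance, minus the average over pairs on different chromosomes. This linkage excess was 0.896 ± 0.0270 (jackknife SE, n = 33) at 40 kb in the high-coverage class, 0.639 ± 0.0157 at 400 kb, 0.373 ± 0.00944 at 2 Mb and 0.182 ± 0.00960 at 20 Mb. In the middle-coverage class it was 0.930 ± 0.0461 (n = 80), 0.662 ± 0.0422, 0.384 ± 0.0326 and 0.193 ± 0.0210 at the same distances. All these values lay more than 9 SE above 0. At each of the 9 distances the classes, with 33 and 80 libraries, lay within 1 SE of the middle-coverage class of each other. The level between different chromosomes, however, was -0.366 in the high-coverage class and -0.667 in the middle-coverage class.

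**Figure D4:**
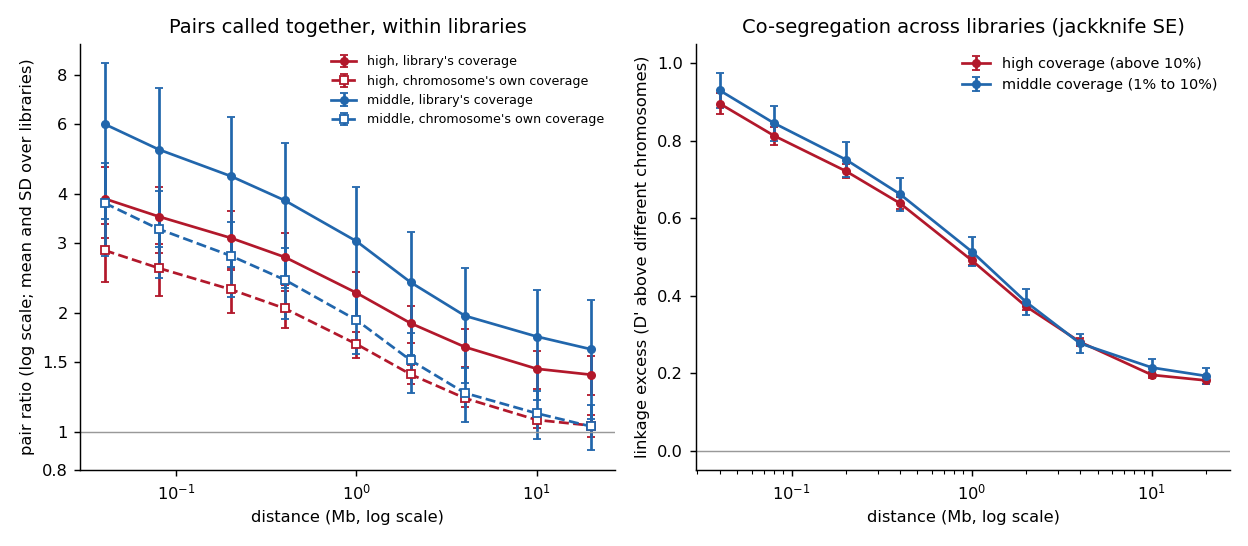
Left, pair ratio against genomic distance on log axes, as mean and SD over libraries, with the library's coverage (filled) or each chromosome's own coverage (open) as the reference. Right, linkage excess in D′ against distance with jackknife SE. At 20 Mb, ratios against the chromosome's own coverage reach 1.04 and 1.03, and those against the library's coverage 1.39 and 1.62. The linkage excess stands at 0.182 and 0.193 there. It is set against pairs on different chromosomes, so whole chromosomes rich or poor in calls remain in it.

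The linkage excess moved with the libraries and windows that entered. Leaving out the propidium iodide experiment, it was 0.992 in the high-coverage and 0.977 in the middle-coverage class at 40 kb, so the order of the classes turned. It also turned without the proteinase K titration, at 0.919 and 0.866, and with a limit of 12% between the classes, at 0.940 and 0.897. With windows called in at least 5 libraries in place of 2, it was 0.779 and 0.877. For the 33 middle-coverage libraries of highest coverage it was 1.04, against 0.896 ± 0.0270 (jackknife SE) in the 33 high-coverage libraries. The closeness of the classes at 40 kb thus did not hold with equal numbers of libraries.

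GC-rich windows were called more often than GC-poor ones in both classes. The share of windows called in the fifth of highest GC content over that in the fifth of lowest GC content was 1.38 ± 0.28 (SD, n = 33) in high-coverage libraries and above 1 in 33 of 33. It was 1.53 ± 0.52 (n = 80) in middle-coverage libraries and above 1 in 70 of 80. Relative to the library's coverage, the 5 parts in order of rising GC content stood at 0.887, 0.927, 1.02, 1.13 and 1.20 in the high-coverage class and at 0.855, 0.924, 1.01, 1.13 and 1.24 in the middle-coverage class. The order was the same in both. The classes overlapped, with ranges of 1.01 to 2.36 and 0.649 to 3.06.

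A few windows were called far more often than the rest. The median window with at most 50% undetermined bases was called in 15.2% of high-coverage and 5.00% of middle-coverage libraries, whereas 6 windows were called in 33 of 33 high-coverage libraries. The first 5 of them in chromosome order are named here, with genes that they overlap. Their repeat content, and how uniquely reads align to them, were not measured. Whether the reads behind these calls came from the named loci was thus not tested. The window at chr2:98480001-98520000, over the predicted genes Gm10801 and Gm10800, was called in 80 of 80 middle-coverage libraries as well. The window at chr6:103560001-103600000, over the neural cell adhesion gene Chl1, was called in 64 of 80, and that at chr11:3040001-3080000, over the centrosomal gene Sfi1, in 60 of 80. Of the windows on chromosome 9, chr9:3000001-3040000 was called in 56 and chr9:35080001-35120000, over Rpusd4 and Gm5614, in 43. None of the 5 windows was called in any of the 9 water controls with a coverage below 1%. These controls together called only 861 of the 65983 windows, so this absence cannot tell the 5 windows from most others. Calls of the 5 windows in the water controls of higher coverage are not given here. Only 15 windows were called in at least 20 high-coverage libraries, and the libraries were otherwise little alike: the highest correlation (phi) of calls between any pair of libraries of both classes was 0.0748.

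The windows that hold the start sites of pluripotency genes, active in embryonic stem cells, were looked up singly. Of 12 genes listed, 11 had a single match in the annotation, and Tfcp2l1 had none. Their windows were called in a median of 18.2% of high-coverage and 7.50% of middle-coverage libraries, next to 15.2% and 5.00% over windows with at most 50% undetermined bases. The gap in the high-coverage class amounts to 1 library, and no test was made. The window of Sox2, a transcription factor of the pluripotency network (chr3:34520001-34560000), was called in 7 of 33 and 11 of 80 libraries. That of Pou5f1, which encodes OCT4 (chr17:35640001-35680000), was called in 4 and 5, and that of Nanog, another transcription factor of the network (chr6:122640001-122680000), in 5 and 7. Over all windows the means were 13.8% and 4.8%, and 9 of the 11 genes lay above the mean in either class. The median window, at 15.2% and 5.00%, lay above these means as well, so such a count is not particular to these genes. The middle-coverage counts of Sox2 and of Lin28a, which encodes an RNA-binding protein and was called in 10 of 80, lay above 8, the 95th percentile over all windows. For the transcription factor genes Klf4 and Klf2 the counts were 8 and 7 of 33, and 6 and 4 of 80.

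The windows of Esrrb, an orphan nuclear receptor, and Zfp42, which encodes the zinc finger protein REX1, were called in 4 and 6 of 33 high-coverage libraries and in 7 and 4 of 80 middle-coverage libraries. Those of Prdm14, a transcriptional regulator, and Lin28a, an RNA-binding protein, were each called in 7 of 33, and in 6 and 10 of 80. Those of the transcription factor genes Sall4 and Tbx3 were called in 5 and 6 of 33 and in 2 and 3 of 80. The longest run over any of them covered 29 windows around Prdm14 on chromosome 1.

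Within a class, libraries of different experiments were tested, since the labels and not the calls define the experiments. The calls still decided, through coverage, which libraries of an experiment entered, and the run length ratio was higher at higher coverage. Differences between experiments therefore cannot be told apart from differences in coverage. The labels do not say that caps came from separate cultures, so the p-values measure the spread between caps. Over the 71 middle-coverage libraries of the 6 experiments with at least 4 of them, the run length ratio differed between experiments (F = 6.92, two-sided permutation test p = 0.00022, Benjamini-Hochberg adjusted p = 0.00132 over 6 tests). Among these experiments it was highest in the proteinase K titration, at 1.76 ± 0.42 (SD, 14 libraries), and 1.73 ± 0.70 in the test of PCR cycle number (4 libraries). It was 1.41 ± 0.38 with propidium iodide (22 libraries), 1.24 ± 0.13 with eosin (13), 1.16 ± 0.06 in the full collection (4) and 1.13 ± 0.11 in the SYBR Gold test (14). Of the experiments with too few libraries to test, the cresyl violet test had a higher ratio of 2.36 ± 1.38 (3) and the early freezing test one of 2.14 in its single library, while the others lay between 1.13 and 1.32. Mean coverage of the tested libraries was 6.08%, 5.48%, 5.23%, 5.72%, 2.63% and 2.89% in this order of experiments. It was lowest in the experiments of lowest ratio but second highest with eosin, and its part in the difference was not tested.

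The coefficient of variation of chromosome coverage also differed between these experiments (F = 3.96, permutation test p = 0.00434, adjusted p = 0.0130). It was 88.6% ± 17.5 in the proteinase K titration, 76.5% ± 8.60 in the full collection, 74.5% ± 19 in the test of PCR cycle number, 73.5% ± 24.0 with propidium iodide, 66.9% ± 21.1 in the SYBR Gold test and 57.0% ± 8.26 with eosin. Without the proteinase K titration the adjusted p was 0.145, so this call rests on that experiment. The X to autosome ratio did not pass the test (adjusted p = 0.311, permutation test). With 1 library left out at a time, the unadjusted permutation p stayed at or below 0.0007 for the run length ratio and at or below 0.0101 for the coefficient of variation.

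In the high-coverage class only the proteinase K titration (12 libraries) and the propidium iodide experiment (11) were large enough to test. The run length ratio averaged 1.98 ± 0.19 in the titration and 1.72 ± 0.34 with propidium iodide, a difference that did not pass after adjustment (permutation test p = 0.0344, adjusted p = 0.0688). It passed on the log2 scale (adjusted p = 0.0456, permutation test) and on autosomes alone, where the adjustment covered 4 tests in place of 6 (permutation test p = 0.0292, adjusted p = 0.0390). With the 3 eosin libraries added, the test was of any difference among 3 experiments (permutation test, adjusted p = 0.00784) and not of the titration against propidium iodide. With a limit of 12% between the classes it was far from passing (permutation test p = 0.379, adjusted p = 0.455). Ratios of the remaining high-coverage libraries ran from 1.39 ± 0.07 over the 3 eosin libraries to 2.61 ± 0.06 over the 2 unstained caps of the cresyl violet test. The coefficient of variation and the X to autosome ratio gave adjusted p of 0.380 and 0.638 by the permutation test.

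**Figure D5:**
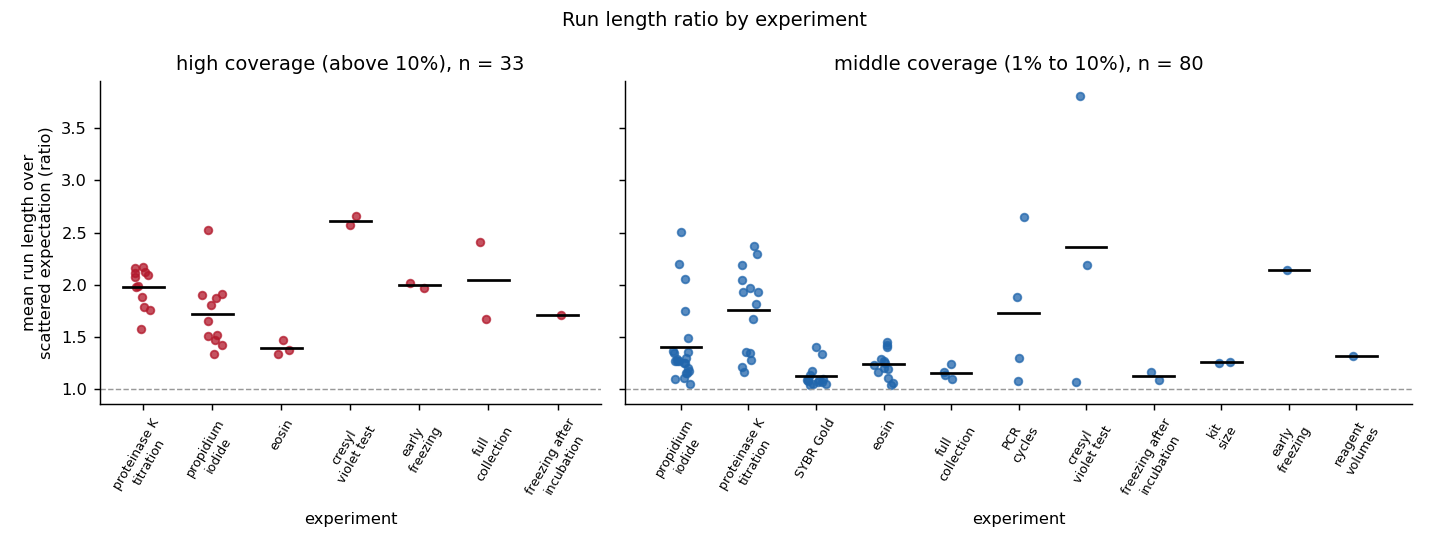
Mean run length over the length that scattered calls would give, with 1 point per library and a bar at the mean of each experiment, for high-coverage libraries on the left and middle-coverage libraries on the right. In the middle-coverage class the SYBR Gold libraries lie near the dashed line at 1, with a mean of 1.13, and the proteinase K libraries average 1.76.

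The classes kept their order inside most experiments that held both. The mean run length ratio was higher in high-coverage than in middle-coverage libraries in 6 of 7 experiments. The exception was the early freezing test, with 2.00 ± 0.03 over 2 libraries against 2.14 in 1 library. The mean number of near-absent chromosomes was higher in high-coverage libraries in 0 of 7 experiments. It was 1.00 ± 0.95 against 4.00 ± 2.60 in the proteinase K titration and 0.364 ± 0.505 against 2.41 ± 2.50 with propidium iodide, whereas it was 1.5 in both classes of the full collection and 0.667 against 0.692 with eosin. The pair ratio at 400 kb was likewise higher in high-coverage libraries in 0 of 7, whereas the share of called windows with a called partner at 40 kb was higher in 6 of 7. The GC-rich to GC-poor ratio was less regular: it was higher in high-coverage libraries in 3 of 7, against the order of the class means. Several of these experiments held only 1 to 3 libraries of a class, so the counts over experiments are a description.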

How the data were processed

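In the deposited table each library had a column and each of 68162 windows of 40 kb a row, with a call of 1 or 0, which is neither a count nor a signal (unit: other). Per the study's methods, the authors aligned reads to mm9 with Bowtie2 (version 2.1 in the submitters' processing notes), removed duplicates with Samtools and called windows in GAMtools at a fixed threshold of 4 reads. A fixed threshold makes coverage depend on read depth, which the calls do not carry. The criteria of the quality control are not analysed here.

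Groups followed the sample titles. Replicate numbers only name libraries. Measures were computed in Python 3.11.15 with numpy 2.4.6 and pandas 2.3.3 and were tested on simulated data. GC content came from NCBIM37 over the 63918 windows with at most 50% undetermined bases, and genes from GENCODE M1. D′ used windows called in at least 2 libraries and 200000 random pairs on different chromosomes. Permutation tests across experiments used 100000 resamples and a threshold of 0.05 on 6 Benjamini-Hochberg adjusted values. Named regions were 5 of the 6 windows tied as called in most high-coverage libraries, taken in chromosome order, the 5 longest runs of each class, with genes named up to 8 (the place and genes of 2 runs are not reported here), a list of 12 pluripotency genes, and the chromosomes most and least often near-absent. Classes and lists were chosen with earlier results of these data known.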

Additional observations from a re-analysis of the deposited data

Results flagged for a closer look

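Among 63 combinations of a measure and a titled condition with 4 to 10 libraries of a class, 5 had a library set apart from the rest by a gap that Dixon's criterion flags in about 1 in 20 groups by chance. This rate is for continuous values and does not apply to near-absent chromosomes, small counts with ties, where a single library at 1 among others at 0 always meets the criterion. In the 7 high-coverage libraries stained with propidium iodide, replicate 7 had a mean run of 3.45 windows, where the others lay between 1.69 and 2.31, and a run length ratio of 2.53, where the others lay between 1.47 and 1.90. Among the 4 high-coverage libraries stained and then frozen, replicate 14 had 1 near-absent chromosome and the others 0. Among the 8 middle-coverage libraries stained with eosin in water, replicate 4 had 3 near-absent chromosomes and the others 0 or 1. Among the 4 middle-coverage libraries with 1 µl of csc proteinase K, replicate 5 had an X to autosome ratio of 0.440, where the others lay between 0.0181 and 0.0291.

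Calls outside chromosomes 1 to 19 and X were not part of the measures above. On chromosome Y, 68 windows had at most 50% undetermined bases. Of these, 12.6% ± 14.3 (SD, n = 33) were called in high-coverage libraries and 3.88% ± 5.53 (n = 80) in middle-coverage libraries. Divided by the coverage of the library, these shares averaged 0.905 ± 0.965 and 0.875 ± 1.21. None was called in the 9 water controls with a coverage below 1%. Those controls were chosen by low coverage and called few windows anywhere, so their lack of Y calls sets nothing apart. Water control replicate 4 of the full collection, of high coverage, had 16.2% of Y windows called. The high-coverage water control titled unstained in the SYBR Gold experiment had 5.88%. The mitochondrial window was called in 33 of 33 high-coverage libraries and in 73 of 80 middle-coverage libraries. It was called in 3 of the 9 water controls with a coverage below 1%, and in both water controls of high coverage.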

How the results depend on the processing

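Of 235 values computed under alternatives, 218 stayed within 1 SD (for linkage, 1 jackknife SE) of the value reported or on the same side of the threshold. The order of the classes was unchanged in all settings for mean run length, run length ratio, coefficient of variation, pair ratio and GC ratio. For near-absent chromosomes it was unchanged in 12 of 13 settings, with medians of 1 in both classes in the other. It was unchanged in 8 of 10 settings for the X to autosome ratio and in 8 of 11 for the linkage excess. The linkage excess at 40 kb of the high-coverage class was 0.940 with an upper limit of 12%, 0.864 with 8%, 0.992 without the propidium iodide experiment and 0.779 with windows called in at least 5 libraries. That of the middle-coverage class was 0.977 without propidium iodide, 0.866 without the proteinase K titration, 0.877 with windows called in at least 5 libraries and 1.04 for the 33 libraries of highest coverage. With gaps of 1 window bridged, high-coverage runs averaged 3.36 windows, a ratio of 2.88. Against each chromosome's own coverage, their pair ratio at 400 kb was 2.05. Among permutation tests across experiments, the high-coverage run length ratio had an adjusted p of 0.00054 with an upper limit of 8%, 0.0390 on autosomes, 0.00784 with experiments of at least 3 libraries and 0.0456 on the log2 scale, but 0.455 with an upper limit of 12%. The high-coverage coefficient of variation had 0.0231 with an upper limit of 8%, and the middle-coverage one had 0.145 without the proteinase K titration. With the 8% limit, and with at least 3 libraries, the eosin test entered as well, so these values are for 3 experiments. The titration against propidium iodide alone, a choice made after seeing the data, gave unadjusted permutation p of 0.00187 and 0.0337 for the 2 measures with the 8% limit. On autosomes the adjustment covered 4 tests. Other causes were not tested. Leaving out the unstained caps of the cresyl violet test, a choice made after seeing the data, gave run length ratios of 1.83 and 1.39. These caps entered a test across experiments only in the middle-coverage class, and only where experiments of at least 3 libraries were taken. No paired analysis was possible because replicate numbers only name libraries. The unknown read depth limits every value, and a missing chromosome cannot be told apart from one whose windows stayed below the read threshold.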
